A study of Mus musculus with 2 samples.

Results

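Interleukin-6 and its relatives act through receptors that share the signal-transducing chain gp130, and interleukin-1 acts through a separate receptor pair. Binding of IL-6 brings gp130 chains together, and the kinases JAK1 and JAK2 that sit on them become active. The transcription factor STAT3 is then phosphorylated and moves to the nucleus. One of the genes it switches on there is Socs3, an inhibitor of the same kinases. Binding of IL-1 to its receptor and accessory chain recruits MyD88 and IRAK kinases and leads to NF-κB. In hepatocytes both routes drive the acute phase response, in which the liver secretes plasma proteins such as serum amyloid A and haptoglobin, and IL-6 and IL-1β are also well-known products of senescent cells.

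The 10 genes described here are the receptor genes Il6ra, Il6st, Osmr, Lifr, Il1r1 and Il1rap, the kinase genes Jak1 and Jak2, Stat3 and Socs3. They were chosen by name and found by matching the Ensembl identifiers of the count table to GENCODE M21 symbols, and all 10 of them were found among the 35275 genes listed. Their RNA was measured by RNAseq in AML12, a line of mouse hepatocytes that is not transformed and was established from a mouse carrying a transforming growth factor alpha transgene. The labels give its source as the liver of a male CD-1 mouse aged 3 months.

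One library came from untreated control AML12 cells (labelled Young), and the other from AML12 cells in which repeated sublethal hydrogen peroxide had induced premature senescence (labelled Old). Per the study's methods, peroxide was given in serum-free medium for 1 h a day on 6 days. The dose was 1 mM first and 750 μM thereafter, and each exposure was followed by 23 h in complete medium. Whether control cells had matching serum-free periods is not stated there. Both groups were grown in medium with serum, insulin, transferrin, selenium and 100 nM dexamethasone, a glucocorticoid. RNA of 3 samples per condition was pooled, so there was 1 library per condition, no replicate check and no p-value, and every difference below is between 2 libraries. The control library held 28021941 counted reads and the senescent library 25738075.

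Differences are given as log2 ratios of senescent over control after scaling by edgeR's TMM method. Their 95% intervals cover counting error only, because each condition had 1 library. Amplified reads were counted without molecular identifiers, so even the counting error may be understated. A gene with 10 or more reads in all was tested, and it was past the threshold when its log2 ratio lay beyond 1.5 in either direction with an interval that did not hold 0. Only such genes are said below to have fallen or risen. All 10 genes were among the 14383 tested. Of the 10, 1 was past the threshold, and it was lower. Among all tested genes 8.31% were past it, 5.60% lower and 2.71% higher, so the count for the 10 genes was near the background. Past a log2 ratio of 1 there were 2 lower genes, Il1r1 and Osmr, beside 9.98% of all tested genes, and no higher one, beside 5.09%.

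The labelled cell type was checked against marker genes. Of 18 hepatocyte markers 17 had at least 10 reads over both libraries, but only 11 had at least 100. The hepatocyte regulator gene Hnf4a had 8187 control and 7705 senescent reads. The hepatocyte list summed to 3412 CPM (counts scaled to equal TMM library size) in the control and 2145 CPM in the senescent library, with 2 markers past the threshold in each direction. The lower ones were Alb, the albumin gene, with 32076 and 2917 reads, and Apoa1, with 2026 and 197. The higher ones had few reads, Cps1 with 19 and 55 and Cyp2e1 with 0 and 50. Markers of T and B cells (7 genes) and of endothelium (7 genes) summed to less than 1 CPM in each library, from 0.121 to 0.564 CPM, and none of these 14 reached 10 reads. The 11 fibroblast and stellate markers summed to 0.928 and 0.887 CPM, with Col1a2, Col3a1, Lum and Acta2 at 0 in both libraries, Col1a1 at 21 and 1 reads and Reln at 0 and 12. The 10 macrophage markers summed to 194 and 82.2 CPM, almost all of it Cd14, and Adgre1, Clec4f and Tyrobp were at 0 in both libraries. Cd14 had 5551 and 1879 reads, whereas Ptprc, with 27 and 76, and Csf1r, with 15 and 40, were past the threshold upwards. The part of these marker differences in the results below was not tested.

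Il1r1, the signalling receptor of IL-1, was the only one of the 10 genes past the threshold. Control cells gave 563 of its reads and senescent cells 66. This is 7.19-fold lower in the senescent library, with an interval of 5.63 to 9.54, or a log2 ratio of -2.85 (-3.25 to -2.49). Only 1.15% of all tested genes had a lower ratio, and the gene stayed past the threshold under each of the alternative scalings, prior counts, thresholds and intervals tried. In bulk RNA, fewer cells that express a gene and less of its RNA per cell cannot be told apart. Il1rap, the accessory chain without which IL-1 cannot signal through Il1r1, had 58 and 39 reads, and its log2 ratio was -0.34 with an interval of -0.97 to 0.27 that held 0. The ratio of Il1r1 to Il1rap reads within a library does not depend on the scaling between libraries. It was lower in the senescent library by a log2 change of -2.52 (-3.21 to -1.83), so the drop in Il1r1 was larger than any drop in Il1rap that this depth allows. Per length of exon, Il1r1 was at 17.3 times the level of Il1rap in the control library and at 3.02 times in the senescent library. These multiples depend on the length used. With the longest transcript as length, Il1r1 was at 3.33 and Il1rap at 0.441 CPM per kilobase in the control library. In the senescent library they were at 0.457 and 0.348.

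Il1r1 (ENSMUSG00000026072) lies on the plus strand of chromosome 1, from 40225080 to 40317257 of GRCm38. GENCODE M21 lists 3 transcripts for it, of which 2 are coding, and the longest has 11 exons. RefSeq gives it starts at 2 places, and the 250 bases before each are shown because a count per gene does not tell which start its reads came from. The first window ends at the base before the annotated gene. The other lies inside the gene and overlaps none of its annotated exons. Capitals mark a match to the NF-κB consensus on either strand.

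Il1r1 upstream start, chr1:40224830-40225079, plus strand: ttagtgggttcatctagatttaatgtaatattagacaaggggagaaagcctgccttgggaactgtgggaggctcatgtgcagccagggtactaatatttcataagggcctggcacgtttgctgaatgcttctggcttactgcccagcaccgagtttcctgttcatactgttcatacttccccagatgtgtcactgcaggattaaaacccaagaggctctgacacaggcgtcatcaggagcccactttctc

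Il1r1 internal start, chr1:40266336-40266585, plus strand: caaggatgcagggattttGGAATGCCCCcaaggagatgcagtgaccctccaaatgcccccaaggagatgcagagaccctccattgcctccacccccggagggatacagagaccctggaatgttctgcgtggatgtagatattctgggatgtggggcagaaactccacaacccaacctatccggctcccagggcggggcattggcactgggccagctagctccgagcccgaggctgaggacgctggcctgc

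The match begins at position -232 from the internal start, on the minus strand of the window. Among 32851 RefSeq windows (250 bases before to 50 after a start, GRCm38.p6), 8.46% hold a match to the consensus, and of the 10 genes only Il1r1 does in its windows. Such a match is a string of letters and not evidence of binding. The windows of Il1r1 also differ in composition, with 3 CpG dinucleotides before the upstream start and 7 before the internal start.

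**Figure D1:**
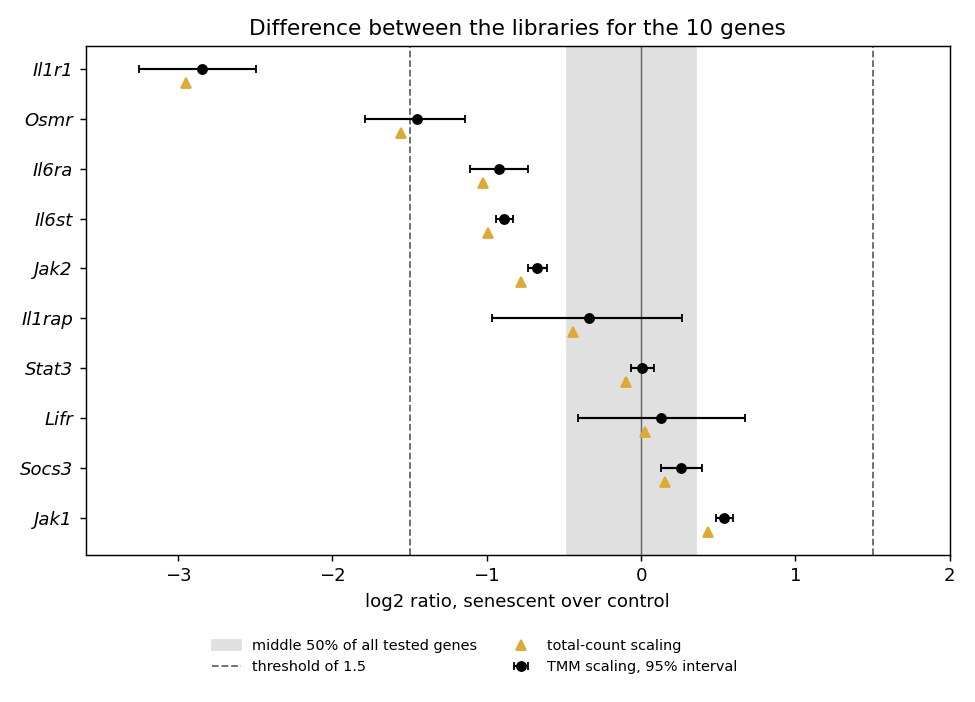
Log2 ratio of senescent over control for the 10 genes, with 95% counting intervals under TMM scaling as black points and bars, the same ratio under total-count scaling as triangles, the middle 50% of all tested genes as a grey band and the threshold of 1.5 as dashed lines. Il1r1 at -2.85 is the only gene beyond the threshold under TMM scaling, while Osmr at -1.45 crosses it under total-count scaling.

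Of the 6 receptor genes, 4 had an interval wholly below 0 (Il1r1, Osmr, Il6ra and Il6st), against 34.6% of all tested genes, and the intervals of Lifr and Il1rap held 0. Their median log2 ratio was -0.90, beside -0.02 for all tested genes. The median of the 4 genes that act inside the cell was 0.13. Osmr, the chain that pairs with gp130 to bind oncostatin M, had 342 control and 106 senescent reads. Its log2 ratio of -1.45 (-1.79 to -1.14) was just short of the threshold, and only total-count scaling, at -1.56, took it past. Il6ra, the chain that binds IL-6 itself, had 737 and 332 reads (-0.92, interval -1.11 to -0.73). Il6st, which encodes gp130, had the most reads of the 10 genes in the control library, 8524, against 3931 in the senescent library (-0.89, interval -0.94 to -0.83). Of all tested genes 13.2% had a ratio below that of Il6st, and 6.10% had one below that of Osmr.

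By counting error alone, the receptor chains that share gp130 did not all differ alike between the libraries. The intervals of the ratios below do not cover the spread between cultures. The ratio of Il6ra to Il6st reads was nearly the same in both libraries, with a log2 change of -0.03 (-0.23 to 0.16), and per length of exon Il6st stood at 9.01 times Il6ra in the control and 9.22 times in the senescent library. Osmr was lower relative to Il6st, with a log2 change of -0.57 (-0.89 to -0.25). Lifr, the receptor chain for leukaemia inhibitory factor, had 62 and 58 reads and a log2 ratio of 0.13 (-0.41 to 0.67). Relative to Il6st, Lifr was higher by 1.02 on the log2 scale (0.50 to 1.54). Per length, Osmr stood at 4.91 times Lifr in the control library and at 1.63 times in the senescent library, a log2 change of the Lifr to Osmr ratio of 1.59 (0.99 to 2.20). The levels of both chains were thus closer to each other in the senescent library. The multiples per length depend on the length used. With the longest transcript as length, Osmr was at 2.14 and Lifr at 0.221 CPM per kilobase in the control library. In the senescent library these 2 were at 0.778 and 0.242. Il6st was then at 33.8 and Il6ra at 2.93 in the control, and at 18.3 and 1.55 in the senescent library.

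Il6ra (ENSMUSG00000027947) lies on the minus strand of chromosome 3 from 89864059 to 89913196, and Il6st (ENSMUSG00000021756) on the plus strand of chromosome 13 from 112464070 to 112510086. Osmr (ENSMUSG00000022146) and Lifr (ENSMUSG00000054263) both lie on chromosome 15, from 6813577 to 6874969 on the minus strand and from 7090614 to 7197489 on the plus strand. GENCODE lists 10 coding transcripts for Il6st, 2 for Il6ra and 6 for Il1rap. Counts per gene do not separate membrane-bound from soluble receptor forms. The antisense gene Gm42809 shares 242 exonic bases with Il6ra, and Gm20319 shares 552 with Il1rap. Gm20319 had 2 control reads and 1 senescent read, and Gm42809 was not analysed here. Whether strand was used in counting is not given in the sources used here, so reads of an antisense partner cannot be told apart from those of the receptor gene.

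**Figure D2:**
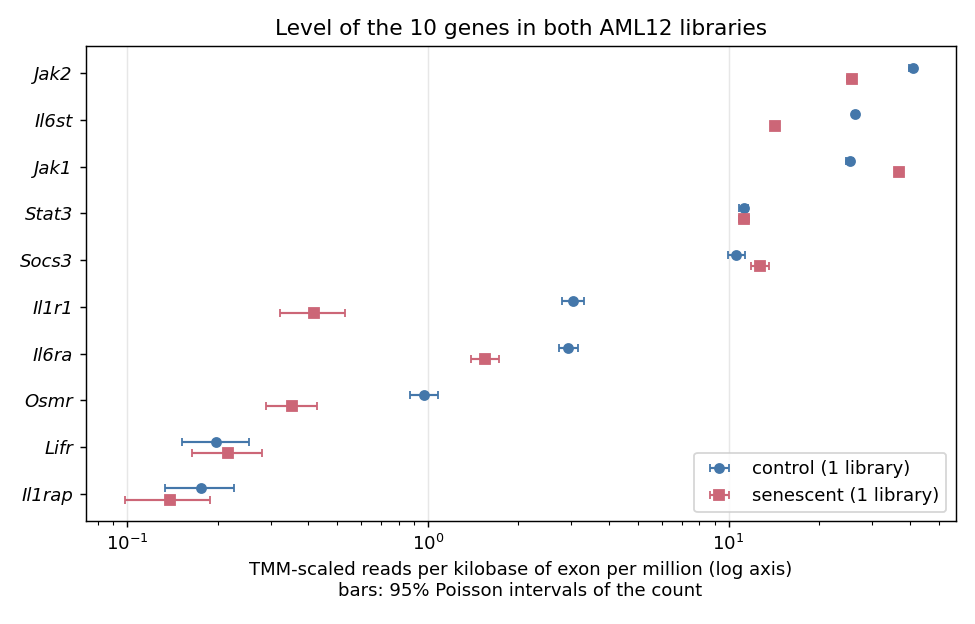
Level of each gene per length, in TMM-scaled CPM per kilobase of exon on a log axis, in the control library (circles) and the senescent library (squares), with 95% Poisson intervals of the count. Jak1, Jak2 and Il6st are highest in both libraries, Lifr and Il1rap are lowest, and the widest gap between the libraries is that of Il1r1.

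The order of Jak1 and Jak2 by level per length differed between the 2 libraries. With intervals widened for an assumed coefficient of variation of 0.4, those of Jak2 (-2.27 to 0.93) and Jak1 (-1.06 to 2.14) held 0. The intervals below cover counting error only. Jak2 went from 5993 control to 3208 senescent reads, and its log2 ratio was -0.67 (-0.73 to -0.61). Jak1 had 5322 and 6600 reads, with a log2 ratio of 0.54 (0.49 to 0.59), the highest of the 10 genes. Neither was past the threshold, and 83.8% of tested genes had a lower ratio than Jak1. The ratio of Jak2 to Jak1 reads, which no scaling between the libraries can move, differed by a log2 change of -1.21 (-1.29 to -1.13). Per length of exon, Jak2 was at 41.0 and Jak1 at 25.3 CPM per kilobase in the control library, whereas in the senescent library Jak2 was at 25.7 and Jak1 at 36.8. Both kinases bind gp130 and can start its signal, and Jak1 and Jak2 also serve many other cytokine and hormone receptors. Jak1 (ENSMUSG00000028530) lies on the minus strand of chromosome 4 from 101152367 to 101265282, and Jak2 (ENSMUSG00000024789) on the plus strand of chromosome 19 from 29251828 to 29313080.

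Stat3 had 3111 control and 2669 senescent reads. Its log2 ratio was 0.01 (-0.07 to 0.08), in the middle of the whole table, where 51.7% of tested genes had a lower ratio. With total-count scaling the value was -0.10 (-0.17 to -0.02), so its sign depended on the scaling and its size stayed small. Counts of RNA carry no information on phosphorylation of the protein, by which STAT3 is activated. Stat3 (ENSMUSG00000004040) lies on the minus strand of chromosome 11 from 100885098 to 100939540 and overlaps its neighbour Stat5a, on the opposite strand, by 72 exonic bases. Stretches of at least 100 bases in its transcripts match transcripts of 12 other genes at 95% identity or more, the longest over 114 bases, so a small part of its reads may be shared.

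Socs3, the feedback inhibitor, had 893 control and 913 senescent reads. Its log2 ratio of 0.26 (0.13 to 0.40) was far short of the threshold, and with total-count scaling it was 0.15 (0.02 to 0.29). The ratio of Socs3 to Stat3 reads was higher in the senescent library by 0.25 on the log2 scale (0.10 to 0.41). Socs3 and Jak1 were the 2 of the 10 genes with an interval wholly above 0, against 34.0% of all tested genes. With intervals widened for an assumed coefficient of variation of 0.1 between cultures that of Socs3 held 0 (-0.16 to 0.68), and at 0.4 that of Jak1 did too (-1.06 to 2.14). Socs3 (ENSMUSG00000053113) lies on the minus strand of chromosome 11 from 117966079 to 117970047. Of the 10 genes it alone holds the loose STAT motif TTCNNNGAA in its window around the start, as do 8.3% of all windows. The stretch around the match is shown because Socs3 is a known STAT3 target, with the motif in capitals.

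Socs3, chr11:117969502-117969530, minus strand: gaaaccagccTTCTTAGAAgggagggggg

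The match begins at position -154 from the RefSeq start, and the bases before that start lie inside the annotated gene. The stricter motif TTCCNGGAA, whose matches are also matches to the loose one, was in 1.15% of all windows and in none of those of the 10 genes, and the AP-1 motif TGANTCA was in 7.81% of all windows and in that of Osmr alone. Both strands were searched, and no match in a window says only that these letters are not there.

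In the control library the order of the levels per length was Jak2, Il6st, Jak1, Stat3, Socs3, Il1r1, Il6ra, Osmr, Lifr and Il1rap, from 41.0 down to 0.176 CPM per kilobase of exon. The neighbours Il6st and Jak1, Stat3 and Socs3, Il1r1 and Il6ra, and Lifr and Il1rap had overlapping 95% intervals in that library. In the senescent library the order was Jak1, Jak2, Il6st, Socs3, Stat3, Il6ra, Il1r1, Osmr, Lifr and Il1rap, from 36.8 down to 0.138, and there the intervals of Il1r1 and Osmr and of Lifr and Il1rap overlapped. Jak2 was higher than 90.4% of tested genes in the control, and Il1rap was higher than only 7.97%. Il1r1 went from above 39.0% of tested genes in the control library to above 17.1% in the senescent library. With the longest transcript in place of all exons as the length, 6 genes kept their place in the control order and 4 in the senescent order. Jak1 then came before Il6st in the control, Stat3 before Socs3 and Osmr before Il1r1 in the senescent library, and Il1rap before Lifr in both.

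**Figure D3:**
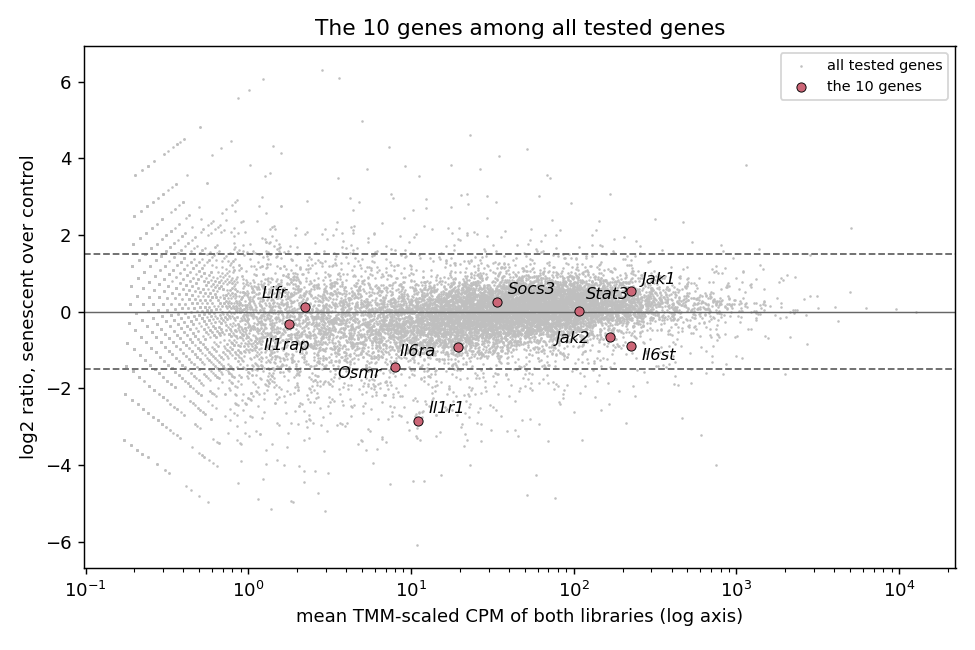
Log2 ratio of senescent over control against the mean TMM-scaled CPM of both libraries (log axis) for all 14383 tested genes in grey and the 10 genes in red, with the threshold of 1.5 as dashed lines. Il1r1 lies in the lower fringe of genes of its level, Osmr at the dashed line, and Jak1 and Il6st on opposite sides of 0 at similar levels of CPM.

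Of 11 ligand genes of the gp130 family 6 had at least 10 reads, none was past the threshold, and their median log2 ratio was -0.33. Il6 had 1 control read and 0 senescent reads, which was too few for a fold, and no difference could be detected at a depth where 3 reads correspond to 0.103 CPM in the control and 0.121 CPM in the senescent library. Il11 had 49 and 26 reads (-0.67, interval -1.43 to 0.03). The most abundant were Clcf1, with 2390 and 2036 reads (0.00, interval -0.09 to 0.08), and Lif, with 739 and 646 reads (0.04, interval -0.12 to 0.19). Ctf1, which encodes cardiotrophin, was the gp130 ligand with a log2 ratio below -1, at 161 and 62 reads (-1.14, interval -1.59 to -0.72). Osm, the ligand of the Osmr chain, had 0 reads in both libraries.

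Of 10 genes for IL-1 family ligands and antagonists, 5 had at least 10 reads. Il1b had 0 control reads and 1 senescent read, and Il1a had 1 and 0, so no difference could be detected for either. By RT-qPCR, a separate assay, the study reported higher Il1b and Il6 in senescent AML12 cells. Il1rn, the antagonist that occupies the IL-1 receptor, had 798 and 359 reads (-0.92, interval -1.11 to -0.74). Il33, a relative of IL-1 kept in the nucleus, had 433 and 944 reads (1.35, interval 1.19 to 1.52). Il36a (Il1f6 in the annotation), with 13 control reads and 0 senescent reads, was at least 3.70-fold lower against the floor of 3 reads per library, and it was the only gene of the list past the threshold. The list median was -0.86.

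Among the other receptors, Il11ra1, the IL-11 receptor, had 341 and 181 reads (-0.68, interval -0.95 to -0.42), and the remaining 3 gp130-family receptors had at most 1 read. Sigirr, an inhibitory member of the IL-1 receptor family, had 1875 and 1063 reads (-0.59, interval -0.70 to -0.48). Il18rap had 378 and 206 reads (-0.64, interval -0.90 to -0.40), and Il1rl1, the IL-33 receptor, had 17 and 18. None was past the threshold, and the decoy receptor Il1r2 had 0 and 2 reads. Of the 4 tested genes for shedding of receptors none was past it. The most abundant were Adam10, with 6317 and 4752 reads (-0.18, interval -0.24 to -0.13), and Rhbdf1, with 1903 and 1782 (0.13, interval 0.04 to 0.23). Adam17, a protease that releases the IL-6 receptor from the cell surface, had 1752 and 810 (-0.88, interval -1.01 to -0.76).

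None of the 7 other JAK and STAT genes tested was past the threshold, and their median log2 ratio was -0.40. Stat6 had 4056 and 2988 reads (-0.21, interval -0.28 to -0.14), and Tyk2, the third kinase that binds gp130, had 1578 and 1330 (-0.02, interval -0.12 to 0.09). Of 17 other inhibitors of JAK and STAT signalling 1 rose, Socs1, from 34 to 188 reads (2.66, interval 2.16 to 3.27), where 2.71% of all tested genes were past the threshold upwards. Of the 17, 11 had an interval wholly above 0 and 2 one wholly below 0, beside 34.0% and 34.6% of all tested genes, and their median was 0.31. Cish, a relative of Socs1 that restrains STAT5, had 335 and 116 reads (-1.29, interval -1.62 to -0.99). The intervals of the log2 ratios of Socs1 and Socs3 did not overlap, but they cover counting error only. Whether the 2 genes differ beyond the spread between cultures was not tested.

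Downstream of the IL-1 receptor, 16 adaptor and kinase genes were tested, 1 of which fell, beside 5.60% lower among all tested genes. Of the 16, 5 had an interval wholly below 0 and 7 one wholly above 0. The one past the threshold was Irak3, an inhibitory member of the IRAK family, with 314 and 74 reads (-1.84, interval -2.24 to -1.49). The median of the 16 was 0.07. Myd88, the adaptor that binds the receptor pair, had 904 and 557 reads (-0.47, interval -0.62 to -0.32).

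Many genes known to be induced by IL-1 fell. Of 20 with at least 10 reads, 14 fell and none rose, beside 5.60% lower among all tested genes. Their median log2 ratio was -2.17, beside -0.02 for all tested genes. Saa3, a serum amyloid A gene, fell from 626 to 7 reads (-6.08, interval -7.57 to -5.20), and Lcn2, which encodes lipocalin 2, from 4293 to 125 (-4.86, interval -5.14 to -4.62). The chemokine gene Ccl20 fell from 1270 to 67 reads (interval of the log2 ratio -4.39 to -3.66), the complement gene C3 from 41055 to 2194 (interval -4.06 to -3.93) and the chemokine gene Ccl2 from 23389 to 2922 (-2.77, interval -2.83 to -2.72). Several of these genes were known to be lower when the list was drawn up, and NF-κB is also reached from other receptors, so the list is not independent evidence of its direction. The 6 that were not past the threshold lay between -1.31 and -0.12.

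Of the genes known as targets of STAT3 in hepatocytes, without the 4 of the 10 genes on this list, 21 had at least 10 reads, of which 6 fell and 1 rose, beside 5.60% lower and 2.71% higher among all tested genes, and the median was -0.12. The 6 that fell were Saa3, Lcn2, Hp, Lrg1, Orm1 and Hpx. Saa3 and Lcn2 are also on the IL-1 list, and the others included Hp, the haptoglobin gene, from 2886 to 88 reads (-4.79, interval -5.13 to -4.50), and Orm1, which encodes orosomucoid, from 147 to 18 (-2.74, interval -3.59 to -2.09). The one that rose, the fibrinogen gene Fga, had only 8 control and 34 senescent reads (2.17, interval 1.18 to 3.64). The remaining 14 were not past the threshold. Over all 25 tested genes of the list, the 4 of the 10 genes included, intervals lay on both sides of 0. Of them 13 were wholly below 0 and 8 wholly above 0, beside 34.6% and 34.0% of all tested genes.

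**Figure D4:**
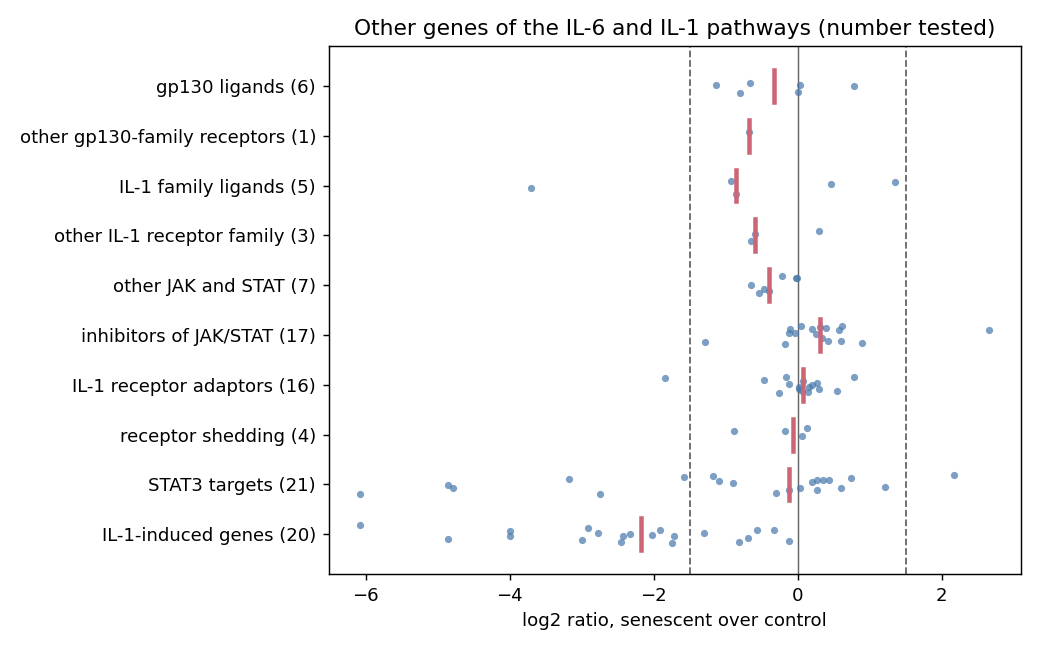
Log2 ratio of senescent over control for the other tested genes of the IL-6 and IL-1 pathways, by list, with 1 point per gene, the list median as a red bar and the threshold of 1.5 as dashed lines (the 10 genes are left out). The IL-1-induced genes have a median of -2.17, and the medians of the other lists lie between -0.86 and 0.31. Il36a, with 0 senescent reads, is drawn at its fitted value.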

How the data were processed

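The authors deposited un-normalized counts of reads per Ensembl gene for 2 poly(A)-selected libraries, each from pooled RNA. The submitters' processing notes name mm10, CASAVA, STAR, DESeq2 and edgeR, and the counting tool and its strand setting are not given in the sources used here. Each column was given to a sample by its first letter (O for the title Old, Y for Young). Of 35275 genes, 34490 were paired with a GENCODE M21 symbol. TMM factors of edgeR 4.0.16 (R 4.3.3) were 1.04 (control) and 0.964 (senescent). Log2 ratios used a prior count of 1 scaled by library size, and their 95% intervals are Clopper-Pearson intervals of the share of each gene's reads that was senescent. Intervals of ratios between genes are normal approximations on the log2 scale, and levels carry exact Poisson intervals. All cover counting error only. Python 3.11.15, numpy 2.4.6, pandas 2.3.3, scipy 1.17.1 and matplotlib 3.10.9 were used. Quasi-likelihood and DESeq2 tests were not run, since each condition had 1 library. The threshold of 1.5 follows the study's methods. On simulated data with 200 genes changed by 3 on the log2 scale, 200 were recovered. The simulated counts carried counting error only, and the changed genes had at least 100 expected reads over both libraries. With a change so far past the threshold this checks the code and says nothing on the spread between cultures. The 10 genes and the lists were chosen with earlier results of these data known. Of each list, genes the study names, up to 4 past the threshold in each direction with at least 100 reads, or else the 2 with most reads, were named, and all genes of a list with fewer than 4 tested. Ctf1, Cish, Adam17, Myd88, Fga, Lrg1, Hpx, Il1rn, Il33, Il36a, Il1a, Il1r2 and Osm were named after their values were seen. Alternatives were total-count, DESeq2 1.42.0 and upper-quartile scaling, filters of 1 and 100 reads, prior counts of 0.125 and 5, thresholds of 1 and 2, and intervals widened for an assumed coefficient of variation of 0.1 or 0.4. Promoter sequences are from RefSeq (GRCm38.p6), which had windows for all 10 genes.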

Additional observations from a re-analysis of the deposited data

How the results depend on the processing

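Of the values given for the 10 genes and for the counts, 132 stayed within their error or within 1.5 times under the alternatives tried, and 17 moved. The log2 ratios under widened intervals are among the 132 by construction, because widening leaves the ratio itself unchanged. Whether a widened interval came to hold 0 did not enter that count. The number of the 10 genes with an interval wholly below 0 also could not change with prior count or threshold. Neither of these settings enters the interval. Total-count scaling shifted the median log2 ratio of all tested genes by -0.11 and put Il6st at -0.99, Jak1 at 0.43, Jak2 at -0.78 and Stat3 at -0.10. It also raised the number of the 10 genes lower past the threshold to 2, as did a threshold of 1, with Osmr as the second gene in both. A threshold of 1 took the share of all tested genes past it to 15.1% (9.98% lower), a threshold of 2 to 4.72% (3.20% lower) and a filter of 100 reads to 4.75% (3.50% lower). Of the other pathway genes, 20 were lower and 2 higher past the threshold. Among all tested genes the shares were 5.60% lower and 2.71% higher. Most of the 20 were on the IL-1-induced list (14 of 20 tested) or the STAT3 target list (6 of 21 tested). Saa3 and Lcn2 were on both. The remaining lists gave only Il36a and Irak3, and all lists were drawn up with earlier results of these data known. The number higher was 1 with a filter of 100 reads and 4 with a threshold of 1. With intervals widened for a coefficient of variation of 0.4, 1 of the 10 genes (Il1r1) kept an interval wholly below 0 in place of 5. The spread between cultures was not measured. With the longest transcript as length, 6 genes kept their place in the control order and 4 in the senescent order. No replicate could be left out, and no paired analysis was possible because each condition has 1 library.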
